A study of Mus musculus with 36 samples.

Results

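The genes described here are the myostatin pathway members Mstn, Fst, Fstl1 and Acvr2b and the secreted muscle factors Fndc5, Il15, Metrnl, Bdnf, Fgf21 and Fibin, which were taken by symbol from the 46893 features of the count table (10 genes in all). Gastrocnemius RNA from 36 wild-type C57BL/6 male mice was sequenced, with 1 library per mouse and 6 mice in each of 6 groups. All mice entered the study at 3 to 4 weeks of age and were followed for 12 weeks. Sedentary mice received either the AIN93G diet (NFD-C) or a high-fat diet (HFD-C). The exercise groups were given the high-fat diet as well, together with a wheel in the home cage whose brakes limited the distance to 2.1 km/day (HFD-25%), 4.2 km/day (HFD-50%) or 6.3 km/day (HFD-75%), or left it unrestricted at 8.3 km/day (HFD-U). The 24 mice of these 4 groups are called running mice below. No running group received the AIN93G diet, so every effect of distance was measured on the high-fat diet, and the distances are those set for a group and not those of single mice.

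Library totals were 13060090 to 27981702 counts on genes, with a median of 16710687.5. The defining muscle genes Acta1 and Myh4 had 25935 and 47964 CPM (counts scaled to library size) on average, but Mylpf, a fast fibre myosin light chain, had 0.797 CPM. Libraries were set apart by 5 features that tend to gather ribosomal RNA reads (AY036118, LOC118568312, mt-Rnr1, mt-Rnr2 and Lars2). Their share of the total, called the rRNA-linked share, was 0.404 to 1.02% in the running mice, 2.01 to 3.80% in NFD-C and 2.12 to 3.54% in HFD-C replicates 1 to 4, whereas HFD-C replicates 5 and 6 had 0.551 and 0.626%. Results against HFD-C are therefore given with and without those 4 HFD-C libraries where the difference matters. Without them 2 HFD-C mice remain, and a fit with the share as a covariate cannot fully separate the share from running. Lars2 is also among the genes that the study selected for a dose response, and whether the share holds a response to running was not tested. In bulk muscle, fewer cells of a type and less RNA per cell cannot be told apart.

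Myostatin, the product of Mstn, is a secreted factor of the TGF-beta family that is made by muscle fibres and restrains muscle growth. It binds activin type II receptors, of which Acvr2b encodes one, and signals through Smad proteins, while follistatin (Fst) binds myostatin and activins outside the cell and blocks them. Myokines are proteins that muscle releases to act on muscle itself or on other organs, such as the irisin precursor (Fndc5), a cytokine that acts on lymphocytes (Il15), the meteorin-like protein (Metrnl), a neurotrophin (Bdnf) and a metabolic hormone best known from liver (Fgf21).

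Promoter sequences were read from the RefSeq table of GRCm38.p6, a different assembly from that of the counts, whose chromosome records are those of GRCm39. The table held 8 of the 10 members (all but Fst and Il15). The 250 bases before the transcription start are shown for the member with the highest level (Mstn), the member that changed most with running (Fibin) and the member that followed slow fibre genes most closely (Fndc5). Capitals mark matches, on either strand, to an E-box (CANNTG), a glucocorticoid receptor half-site (AGAACA), a FOXO site (GTAAACA) or a TATA box (TATAAA).
Mstn, chr1:53061390-53061639, plus strand: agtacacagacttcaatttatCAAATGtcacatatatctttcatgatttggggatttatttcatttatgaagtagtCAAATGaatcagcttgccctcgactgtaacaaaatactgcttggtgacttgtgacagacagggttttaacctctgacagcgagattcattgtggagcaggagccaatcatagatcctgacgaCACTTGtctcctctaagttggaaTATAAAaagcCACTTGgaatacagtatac
Fibin, chr2:110362994-110363243, minus strand: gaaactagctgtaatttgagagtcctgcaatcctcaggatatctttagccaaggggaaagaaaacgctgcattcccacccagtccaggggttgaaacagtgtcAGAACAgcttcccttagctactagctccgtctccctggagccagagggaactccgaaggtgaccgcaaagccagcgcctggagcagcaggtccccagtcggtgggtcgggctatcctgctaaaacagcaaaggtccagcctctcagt
Fndc5, chr4:129136749-129136998, plus strand: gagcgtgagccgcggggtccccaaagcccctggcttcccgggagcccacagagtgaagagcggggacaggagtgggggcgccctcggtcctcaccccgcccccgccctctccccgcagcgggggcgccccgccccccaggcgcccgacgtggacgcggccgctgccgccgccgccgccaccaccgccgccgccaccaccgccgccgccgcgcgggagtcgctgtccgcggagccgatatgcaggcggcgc
The Mstn window held 4 E-boxes, at 229, 174, 52 and 19 bases before the start, and a TATA box at 29. The Fibin window held no E-box and 1 AGAACA, at 147 bases before the start. In the Fndc5 window, with a GC content of 80.8% against 38.4% for Mstn and 54.8% for Fibin, none of the 4 motifs was found. Of 32851 promoters of this length, 66.2% held an E-box, 16.1% AGAACA, 3.17% the FOXO site and 12.4% the TATA box, so these matches are common and are given as a description.

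Among the members, levels were compared per length of transcript as FPKM (counts scaled to transcript length and library size). Mstn was highest with a mean of 36.5 FPKM over the 36 mice, followed by Fndc5 (19.98), Fibin (9.97) and Fstl1 (8.80). Il15, Acvr2b, Metrnl and Fst had 2.62, 2.18, 1.51 and 0.753 FPKM. Bdnf (0.0852) and Fgf21 (0.0129) were close to the limit of detection. In 9 of the 10 members, all but Fgf21, any 2 groups that stood next to each other in the order of the group means overlapped in their ranges and differed by less than their pooled SD.

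**Figure D1:**
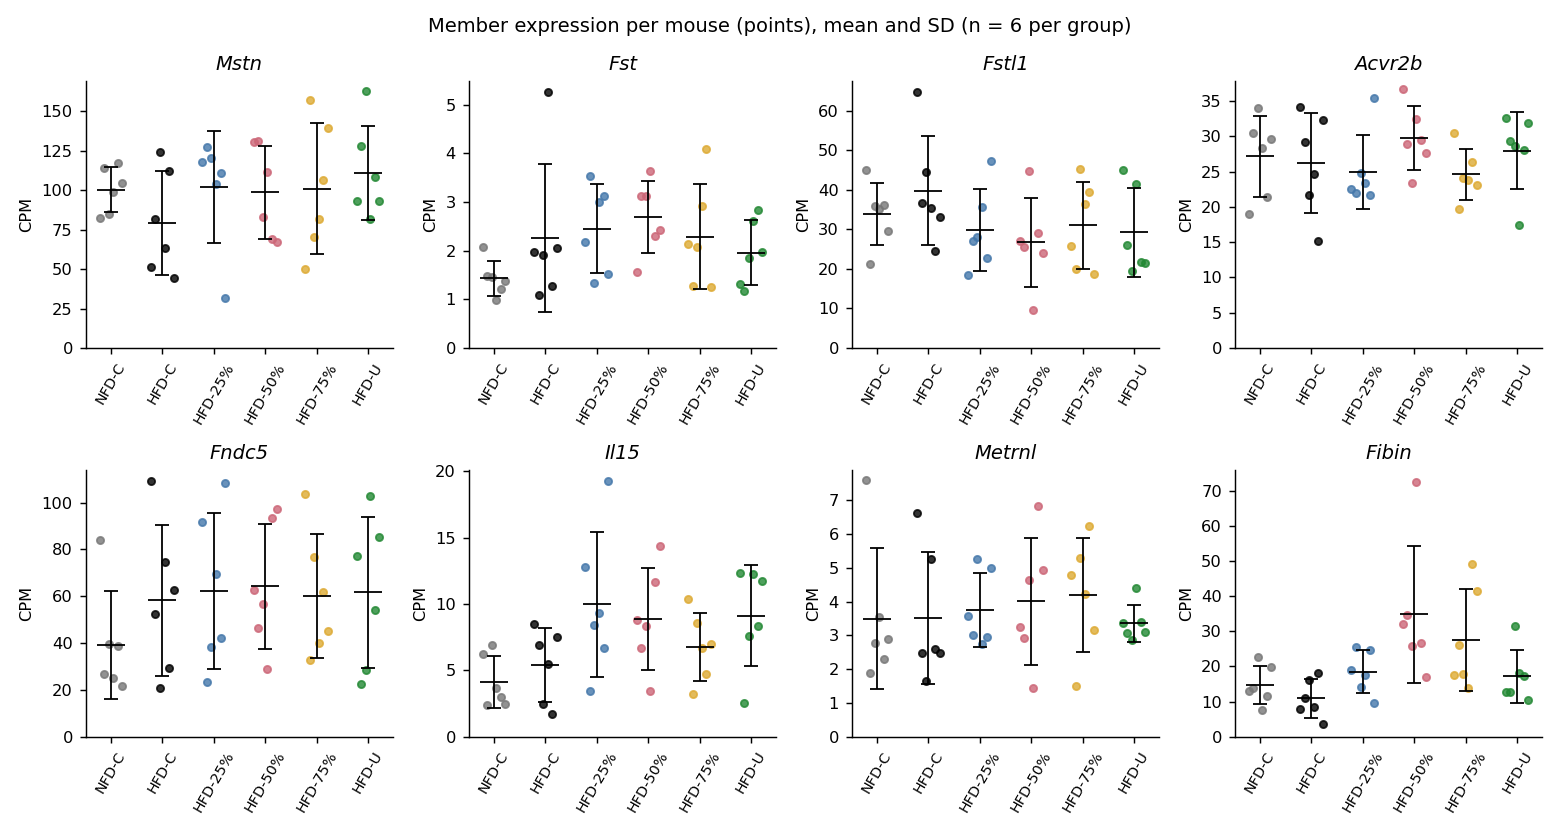
CPM (vertical axis, linear) of the 8 members with a mean count of at least 25, for each mouse (points) in the 6 groups, with the group mean and SD (n = 6). Fibin spans 17.0 to 72.6 CPM in HFD-50% against 3.57 to 18.2 CPM in HFD-C. In each member shown, Fibin included, the ranges overlap between all groups.

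Genes were tested where their mean count reached 25, which 8 members did and Bdnf and Fgf21 did not. The tests were the quasi-likelihood F-test of edgeR, and 2 limits were used: a p of at most 0.05 without adjustment, which is called the unadjusted limit here, and a p of at most 0.05 after adjustment by Benjamini and Hochberg over all genes of a fit. Against HFD-C, 2 of 8 members passed the unadjusted limit in HFD-25% (Il15 and Fibin), beside 6.98% of all genes tested. In HFD-50% and HFD-75% Fibin alone passed, beside 10.7 and 5.47% of all genes. With edgeR, the minimum count and no covariate or block, 0 members passed in HFD-U, beside 5.46% of all genes, where DESeq2 on the same genes passed 3 (Mstn, Il15 and Fibin). In NFD-C 0 members passed in these fits with either tool, beside 4.12% of all genes. For the running mice as 1 group, 3 of 8 passed (Fibin and Il15 higher, Fstl1 lower, beside 9.27%). After adjustment 0 members passed with edgeR in any of these 6 comparisons, each fitted on its own libraries with the minimum count and no covariate or block. In these fits 0.0082, 0, 0, 0, 0 and 0.3% of all genes did, in the order given. In HFD-50% Fibin did pass after adjustment with edgeR without a minimum count and in one fit over all 36 libraries. With DESeq2 it passed in HFD-50% and HFD-75%. The comparisons share the HFD-C mice, so their results are not independent of each other.

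A test for any difference among the 6 groups was passed by Fibin and Il15 (12.2% of all genes at the unadjusted limit) and after adjustment by Fibin (1.45% of all genes). Linear and quadratic terms of daily distance, fitted to the 30 mice fed the high-fat diet, were passed by Fibin, unadjusted (12.2%) and adjusted (0.683%). Over the 24 running mice alone Fibin passed the unadjusted limit (8.49%) and no member passed after adjustment (0.0419%). Between HFD-50% and HFD-U, Fibin passed unadjusted (12.4% of all genes, made up of 7.08% higher in HFD-50% and 5.34% lower) and no member adjusted (0.00844%).

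**Figure D2:**
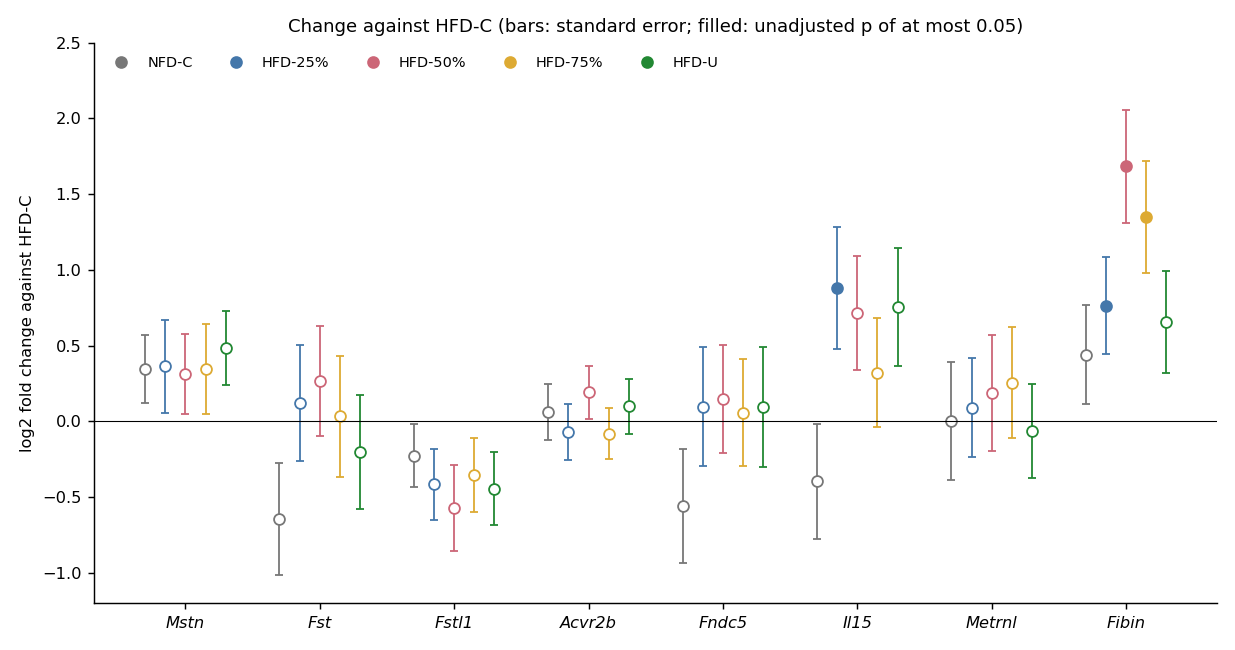
Log2 fold change against HFD-C (vertical axis) of 8 members in NFD-C and the 4 exercise groups (colours), with standard errors as bars and filled points at an unadjusted p of at most 0.05. The 4 filled points are Fibin in HFD-25%, HFD-50% and HFD-75% and Il15 in HFD-25%.

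Mstn (gene 17700, chr1:53100799-53107238, plus strand, GRCm39) had its lowest group mean in HFD-C. Its lowest, median and highest values were 44.1, 72.5 and 124 CPM in HFD-C and 82.7, 102 and 117 CPM in NFD-C. At 2.1 km/day they were 32.0, 114 and 128 CPM, at 4.2 km/day 67.4, 97.2 and 131, at 6.3 km/day 49.9, 94.3 and 157, and at 8.3 km/day 81.7, 101 and 163. The HFD-C mice thus spread over most of the range of the other groups, and 7 of 24 running mice lay above the highest of them and 1 below the lowest. None of the differences from HFD-C passed the unadjusted limit with edgeR and the minimum count, but that of HFD-U did with DESeq2 (0.49, adjusted p = 0.840) and without a minimum count (0.50, adjusted p = 0.543). The log2 fold change was 0.36, 0.31, 0.35 and 0.48 from the shortest to the longest distance (adjusted p = 0.887, 0.718, 0.999 and 0.944 by edgeR), 0.34 in NFD-C and 0.38 (95% interval -0.09 to 0.84, adjusted p = 0.644) for all running mice. Across all genes tested over the 36 libraries, and not for Mstn alone, deviations of HFD-U mice from their group mean correlated with those of the HFD-C mice of the same number (r from 0.125 to 0.51). Pairs of different number were not compared. With the number added as a block, Mstn passed the unadjusted limit in HFD-U with 0.55 (adjusted p = 0.176). When the level of slow fibre genes was added instead, Mstn passed this limit in HFD-50% (0.80, adjusted p = 0.105), HFD-75% (0.50, adjusted p = 0.865), HFD-U (0.50, adjusted p = 0.422) and the running mice as 1 group (0.50, adjusted p = 0.313). The rRNA-linked share was also added, in place of the slow fibre level. The value for all running mice was then 0.10 (adjusted p = 0.913), against 0.38 without a covariate, and neither passed. Mstn averaged 80.1 CPM in the 4 HFD-C libraries of high share, 78.2 CPM in the other 2 and 103 CPM in running mice. Whether the share accounts for the lower value was not tested.

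Fst (gene 14313, chr13:114588798-114595522, minus strand), whose product binds and neutralizes activins and myostatin, was low in every group. In HFD-C the lowest, median and highest mice had 1.09, 1.95 and 5.26 CPM, in NFD-C 0.993, 1.42 and 2.06 and in HFD-50% 1.56, 2.77 and 3.65. The means at 2.1, 6.3 and 8.3 km/day were 2.45, 2.29 and 1.95 CPM, and all 24 running mice lay within the HFD-C range. The difference between running mice and HFD-C was 0.06 on the log2 scale (95% interval -0.49 to 0.61, adjusted p = 0.973 by edgeR). In NFD-C it was -0.64 (95% interval -1.43 to 0.14). Without HFD-C replicate 4, the mouse with 5.26 CPM, Fst passed the unadjusted limit in HFD-50% (0.71, adjusted p = 0.357) and over the 6 groups (adjusted p = 0.345). It also passed in NFD-C without HFD-C replicate 2 (-0.79, adjusted p = 0.999) and between HFD-50% and HFD-U without HFD-50% replicate 1 (0.59, adjusted p = 0.285).

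Fstl1 (gene 14314, chr16:37597417-37656878, plus strand) encodes a secreted glycoprotein with a follistatin-like domain that connective tissue cells express in many organs. The lowest, median and highest values were 24.6, 36.03 and 64.8 CPM in HFD-C and 9.66, 26.6 and 47.4 CPM in the 24 running mice, of which 9 lay below the lowest HFD-C mouse. In NFD-C they were 21.3, 35.5 and 44.98 CPM. The log2 fold change in the running mice was -0.45 (standard error 0.21, adjusted p = 0.518 by edgeR) and passed the unadjusted limit. From the shortest to the longest distance it was -0.42, -0.57, -0.36 and -0.44, and with edgeR and the minimum count it passed in none of these groups. In HFD-50% it passed with DESeq2 (-0.57, adjusted p = 0.417), without a minimum count (-0.59, adjusted p = 0.428) and in one fit over all 36 libraries (-0.58, adjusted p = 0.323), and in HFD-U without a minimum count (-0.43, adjusted p = 0.543). Leaving out HFD-C replicate 5 brought it past the limit at 2.1, 4.2 and 8.3 km/day, as did leaving out HFD-25% replicate 6, HFD-50% replicate 3 and HFD-U replicate 1 or 4 in their own comparisons. Blocked by mouse number, the value of HFD-U passed with -0.46 (adjusted p = 0.363). The difference for all running mice did not hold among libraries of like rRNA-linked share. Without the 4 HFD-C libraries of high share it was 0.02 (adjusted p = 0.983), and with the share in the fit it was 0.09 (adjusted p = 0.910). The first of these fits keeps 2 HFD-C mice, and in the second the share largely goes along with running. Neither can therefore show that a difference is absent. HFD-C replicates 1 to 4 had a mean of 45.3 CPM and replicates 5 and 6 had 28.8 CPM, next to 29.2 CPM in the running mice. The call was also lost without any 1 of 10 mice (HFD-C replicates 1 and 3, HFD-25% replicates 1 and 5, HFD-50% replicate 6, HFD-75% replicates 2 and 6, HFD-U replicates 3, 5 and 6), and the fold change was -0.26 without HFD-C replicate 1.

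Fibroblast markers moved with Fstl1. All 7 markers were detected in each library, and their summed level was 231 to 436 CPM in HFD-C, 234 to 373 in NFD-C and 44.7 to 364 in the running mice, with medians of 294, 336 and 228 CPM. Over the 36 mice and on the log2 scale Fstl1 followed this sum with r = 0.876 and rho = 0.839 (permutation p = 1e-05 for each, adjusted over 55 relations 0.000137 and 0.000183), within groups with r = 0.874 and without the 2 mice farthest from the median of Fstl1 with r = 0.827. The lowest mouse in both was HFD-50% replicate 4 with 9.66 CPM of Fstl1. The part of fibroblast RNA in the Fstl1 difference was not tested.

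Acvr2b (gene 11481, chr9:119231081-119271214, plus strand), an activin type II receptor, had the narrowest spread of the 8 tested members (2.42-fold between the lowest and the highest mouse). It ranged from 15.2 to 36.8 CPM over all mice, with group means from 24.6 CPM in HFD-75% to 29.8 CPM in HFD-50%. HFD-C mice spanned 15.2 to 34.1 CPM with a median of 26.9, and 2 of 24 running mice lay above that range and none below it. The running mice differed from HFD-C by 0.03 on the log2 scale (95% interval -0.24 to 0.30, adjusted p = 0.972 by edgeR).

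Fibin (gene 67606, chr2:110191270-110193338, minus strand), a secreted protein first described in fin bud development, was the member with the largest change. In HFD-C the lowest, median and highest mice had 3.57, 9.74 and 18.2 CPM, and in NFD-C 7.72, 13.3 and 22.6. With running they had 9.56, 18.4 and 25.7 CPM at 2.1 km/day, 17.0, 29.4 and 72.6 at 4.2 km/day, 13.8, 21.9 and 49.2 at 6.3 km/day and 10.4, 15.1 and 31.5 at 8.3 km/day. The group mean was highest at 4.2 km/day, where 5 of 6 mice were higher than the highest of HFD-C, against 3, 3 and 1 of 6 at 2.1, 6.3 and 8.3 km/day. Against HFD-C the fold change was 1.70 in HFD-25% (log2 0.76, adjusted p = 0.680), 3.21 in HFD-50% (log2 1.68, standard error 0.37, adjusted p = 0.121) and 2.54 in HFD-75% (log2 1.35, standard error 0.37, adjusted p = 0.467), and these 3 passed the unadjusted limit. In HFD-U it was 1.58 (log2 0.66, adjusted p = 0.944), which did not pass, whereas blocking by mouse number gave log2 0.72, which did (adjusted p = 0.231), as did DESeq2 (0.66, adjusted p = 0.829) and the fit without a minimum count (0.67, adjusted p = 0.543). HFD-50% exceeded HFD-U 2.04-fold (log2 1.03, standard error 0.33, adjusted p = 0.268), past the unadjusted limit.

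The distance terms over 30 mice gave Fibin an adjusted p of 0.0343, and the test over 6 groups one of 0.0362 (edgeR's quasi-likelihood test). Fibin is among the genes that the study itself selected for a dose response in these mice, so these values are not independent evidence of it. When the study measured Fibin by RT-qPCR in RNA of the same samples, the groups did not differ significantly. The paper names large variation between samples as a possible reason. Over the 24 running mice alone, where HFD-C plays no part, the adjusted p was 0.372. Both adjusted calls were lost without mice numbered 1 (0.117 for distance and 0.125 for the 6 groups) and with the rRNA-linked share in the fit (0.0514 and 0.136). The distance call was also lost without the 4 HFD-C libraries of high share (0.198). Single mice decided the calls as well: the 6-group call was lost without NFD-C replicate 2 or 5, HFD-C replicate 1, 2 or 4, HFD-50% replicate 2 or 4 or HFD-75% replicate 6 (adjusted p from 0.0517 to 0.0944), and the distance call without HFD-C replicate 1, 2 or 6, HFD-50% replicate 2 or HFD-75% replicate 6 (0.0543 to 0.0792).

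For HFD-50% against HFD-C, the unadjusted limit was passed by Fibin in every fit made, with log2 fold changes from 1.32 to 1.89 when each mouse was left out. Without the 4 HFD-C libraries of high share the value was 1.68 (adjusted p = 0.489). HFD-C replicates 5 and 6 had 18.2 and 3.57 CPM and averaged 10.9 CPM, as replicates 1 to 4 did. DESeq2 on the same genes gave an adjusted p of 0.00183, the fit without a minimum count 0.0189 and one fit over all 36 libraries 0.0154. With the slow fibre level in the fit the value was 2.25 (adjusted p = 0.0733). The difference between HFD-50% and HFD-U was 0.48 with the rRNA-linked share in the fit and did not pass (adjusted p = 0.998), and it was 0.66 without HFD-50% replicate 4, the mouse with 72.6 CPM. In HFD-75% and in the running mice as 1 group, the values without the 4 HFD-C libraries of high share were 1.33 and 1.16, as large as with them (1.35 and 1.17), but past the unadjusted limit only with them. The call of HFD-25% was lost without HFD-C replicate 1 or 4 or HFD-25% replicate 2 or 5, without those 4 libraries (0.76), without the mice numbered 1 (0.67) and with the share in the fit (0.64). Fibin went against the summed level of fibroblast genes over the 36 mice (r = -0.578, rho = -0.511, permutation p = 0.00038 and 0.00174, adjusted over 55 relations 0.00275 and 0.00684, within groups r = -0.434 and without the 2 farthest mice -0.433), and the part of this in its differences was not tested. A predicted gene, Gm30319, lies across all 2069 bases of Fibin on the other strand with a mean of 1.61 counts. The sources used here do not say whether strand was used in counting, and reads of the pair cannot be told apart without it.

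Il15 (gene 16168, chr8:83058253-83129883, minus strand) encodes a cytokine that muscle fibres express and that acts on lymphocytes. The lowest, median and highest mice had 1.69, 6.16 and 8.49 CPM in HFD-C and 2.39, 3.33 and 6.93 in NFD-C. They had 3.48, 8.86 and 19.2 CPM at 2.1 km/day, 3.41, 8.55 and 14.4 at 4.2 km/day, 3.22, 6.84 and 10.4 at 6.3 km/day and 2.53, 10.03 and 12.3 at 8.3 km/day. Of the 24 running mice, 11 lay above every HFD-C mouse and none below, although each group overlapped with HFD-C. The log2 fold change was 0.88 in HFD-25% (standard error 0.40, adjusted p = 0.706 by edgeR), past the unadjusted limit. At the longer distances it was 0.72, 0.32 and 0.75, which did not pass, but in HFD-U the block by mouse number gave 0.80, which did (adjusted p = 0.484), as did DESeq2 (0.76, adjusted p = 0.829) and the fit without a minimum count (0.76, adjusted p = 0.543). The last of these fits also passed Il15 in HFD-50% (0.70, adjusted p = 0.442). For all running mice it was 0.67, a 1.60-fold difference (standard error 0.32, adjusted p = 0.529), and this and the test over the 6 groups (adjusted p = 0.290) passed the unadjusted limit. In NFD-C it was -0.40 and did not pass. Without the 4 HFD-C libraries of high share the difference in the running mice was 0.94, with the share in the fit 0.996 and in one fit over all 36 libraries 0.66, none of which passed. The call of HFD-25% was lost without these 4 libraries (1.15), and that of the 6 groups with the share in the fit.

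These calls of Il15 sat close to the limit. In HFD-25% the call was lost without any 1 of 7 mice (HFD-C replicates 3, 4 and 5, HFD-25% replicates 1, 3, 4 and 6). For the running mice it was lost without any 1 of 13 (HFD-C replicates 3, 4 and 5, HFD-25% replicates 1, 4 and 6, HFD-50% replicates 1, 5 and 6, HFD-75% replicate 1, HFD-U replicates 1, 4 and 6), and over the 6 groups without NFD-C replicate 2 or 6. The direction was upward in each of these fits of running mice against HFD-C.

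**Figure D3:**
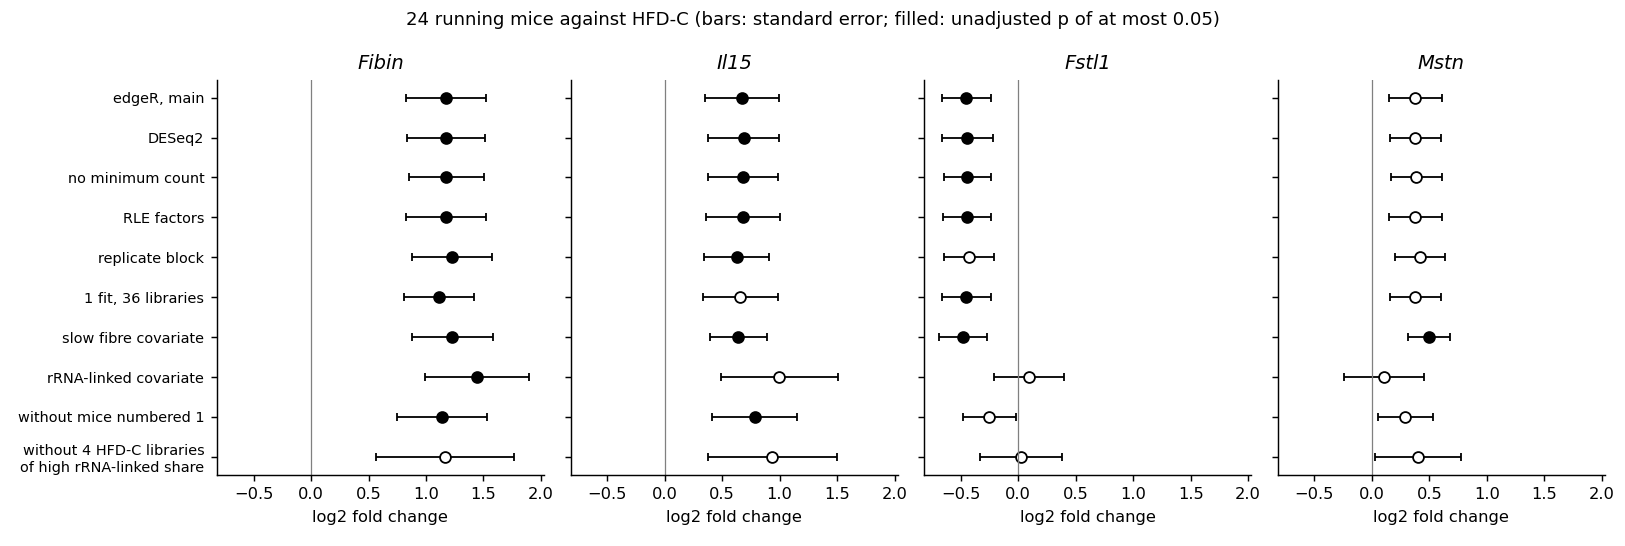
Log2 fold change between 24 running mice and HFD-C (horizontal axis) for Fibin, Il15, Fstl1 and Mstn under 10 ways of fitting (rows), with standard errors as bars and filled points at an unadjusted p of at most 0.05. Fibin stays between 1.11 and 1.44, whereas Fstl1 goes from -0.45 to 0.02 without the 4 HFD-C libraries of high rRNA-linked share.

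Fndc5 (gene 384061, chr4:129030672-129038386, plus strand), the precursor of irisin, varied far more between mice of a group than between groups on the high-fat diet. HFD-C had 20.7, 57.6 and 109 CPM as its lowest, median and highest values, and the 24 running mice had 22.5, 59.3 and 108. All 24 lay within the HFD-C range. The running mice differed from HFD-C by 0.09 on the log2 scale (95% interval -0.53 to 0.71, adjusted p = 0.970 by edgeR). NFD-C had 21.5, 32.7 and 84.1 CPM and a log2 fold change of -0.56, which did not pass the unadjusted limit. NFD-C replicate 1 held the highest of these values, and without the mice numbered 1 the difference was -0.66 and passed (adjusted p = 0.929). With the slow fibre level in the fit the sign turned, to 0.26.

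Metrnl (gene 210029, chr11:121593253-121608215, plus strand), a secreted relative of meteorin that muscle and adipose tissue release, had group means from 3.36 CPM in HFD-U to 4.20 CPM in HFD-75%. HFD-C mice spanned 1.65 to 6.62 CPM with a median of 2.54, and 21 of 24 running mice lay within that range. The running difference was 0.11 (95% interval -0.41 to 0.63, adjusted p = 0.950 by edgeR).

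Bdnf (gene 12064, chr2:109505045-109557388, plus strand) had 361 counts in all 36 libraries, with 0 in 5 of them and at most 40 in 1. NFD-C and HFD-C mice reached 0.966 and 1.42 CPM, and the running mice 1.46, 1.14, 1.70 and 1.48 CPM from the shortest to the longest distance. The lowest value was 0 in NFD-C, HFD-C and HFD-25% and 0.0588 to 0.0906 CPM in the other 3 groups. When genes of any count were tested, Bdnf did not pass the unadjusted limit in any of 10 fits, with log2 fold changes from -0.28 to 0.59. Fgf21 (gene 56636, chr7:45263314-45264914, minus strand) had 7 counts in all, found in 4 of 36 libraries, and 0 counts in each HFD-C and HFD-U library. A count of 0 allows a level of up to 0.106 to 0.231 CPM, depending on the library (3 counts, for counting error only). A difference in Fgf21 between groups was therefore not detectable at this depth.

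The pathway around myostatin was followed with 44 further genes (other ligands, antagonists, proteases, receptors, Smad proteins and their regulators), of which 33 or 34 reached the minimum count. In HFD-25%, 6 of 33 passed the unadjusted limit against HFD-C (2 higher, 4 lower, beside 3.4% of all genes higher and 3.58% lower). In HFD-50% 4 passed (0 higher, 4 lower, beside 5.8 and 4.89%), in HFD-75% 3 (0 higher, 3 lower, beside 2.31 and 3.16%) and in HFD-U 5 (1 higher, 4 lower, beside 2.15 and 3.31%). Of 34 tested in NFD-C 0 passed, beside 1.98 and 2.14%. Among the running mice as 1 group 5 of 33 passed, all of them lower, beside 4.15% of all genes higher and 5.12% lower, and the median log2 fold change of the list was -0.03 beside 0.00 for all genes tested. After adjustment 1 passed, Tgfb2, beside 0.0583% of all genes higher and 0.242% lower.

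Tgfb2, a TGF-beta ligand, had 17.1 ± 3.94 CPM in HFD-C (SD, n = 6) and 18.3 ± 3.64 in NFD-C. It was lower in every exercise group, with 10.3 ± 1.42, 8.36 ± 2.16, 10.9 ± 1.92 and 12.1 ± 3.09 CPM at 2.1, 4.2, 6.3 and 8.3 km/day. HFD-50% did not overlap with HFD-C (highest 10.4 against lowest 11.8 CPM). The log2 fold changes were -0.73, -1.03, -0.64 and -0.49 from the shortest to the longest distance (adjusted p = 0.241, 0.108, 0.397 and 0.792), and all 4 passed the unadjusted limit. For all running mice the value was -0.71 (standard error 0.15, adjusted p = 0.0159), and the adjusted p was 0.000395 over the 6 groups and 0.0108 for distance in 30 mice (edgeR's quasi-likelihood test). Without the 4 HFD-C libraries of high rRNA-linked share the running value was -0.75, about as large, at an adjusted p of 0.147 (0.139 for distance), and without the mice numbered 1 the adjusted p was 0.103 (0.0747 for distance). The running call was lost without HFD-C replicate 1 or 3 (adjusted p = 0.0511 and 0.115) and the distance call without HFD-C replicate 3 (0.05005). When the share was added to the fit, the call over the 6 groups had an adjusted p of 0.0564.

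Tgfb3, another ligand of the family, was 22.2 ± 3.24 CPM in HFD-C and 16.3 to 18.2 CPM on average in the exercise groups. Its log2 fold change was -0.38 in the running mice (adjusted p = 0.122) and it passed the unadjusted limit in each of the 4 groups. Bmpr1a, a type I receptor for bone morphogenetic proteins, had 51.6 ± 13.5 CPM in HFD-50% against 75.6 ± 16.6 in HFD-C and 78.8 ± 16.8 in HFD-U (SD, n = 6). The log2 difference between HFD-50% and HFD-U was -0.61 (adjusted p = 0.247), past the unadjusted limit. Together with Tgfb2 these had the smallest p of the list over the 6 groups (adjusted p = 0.294 for Tgfb3 and 0.103 for Bmpr1a).

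Of 46 other genes for secreted muscle factors, 27 to 30 reached the minimum count. Against HFD-C 0, 2, 3 and 2 passed the unadjusted limit from the shortest to the longest distance and 1 in NFD-C, beside 6.98, 10.7, 5.47, 5.46 and 4.12% of all genes. In the running mice 3 of 29 did (1 higher, 2 lower), close to the 9.27% of all genes. The list had a median log2 fold change of -0.07 there. Angptl4, an inhibitor of lipoprotein lipase, had 11.9, 22.8 and 46.5 CPM as its lowest, median and highest values in HFD-50% and 4.27, 5.24 and 6.08 in HFD-U. These groups did not overlap, and the adjusted p of this difference was 0.0106. In HFD-C Angptl4 had 2.95, 5.24 and 13.5 CPM, a range that overlaps with that of HFD-50%. In the distance fits its adjusted p was 0.00334 over 30 mice and 0.0154 over the 24 running mice, and in the 6-group test 0.00363 (edgeR's quasi-likelihood test). The call between HFD-50% and HFD-U was lost without HFD-U replicate 1, 2 or 6 (0.0507 to 0.0585), and that of distance over 24 mice without HFD-U replicate 1, 2, 3 or 6 (0.0553 to 0.0616) or with the rRNA-linked share in the fit (0.0971). Without mice numbered 1 its adjusted p was 0.137 over the 24 running mice and 0.0826 over the 6 groups. Vegfd and Fgf9, the next over the 6 groups (adjusted p = 0.153 and 0.313), had 13.3 ± 15.9 and 2.25 ± 0.673 CPM in HFD-50% against 5.59 ± 1.42 and 1.75 ± 0.871 in HFD-C (SD, n = 6). Fgf9 was lowest in HFD-U and NFD-C, with 0.891 ± 0.447 and 1.01 ± 0.477 CPM. The Vegfd values of HFD-50% had a median of 7.06 CPM and a highest mouse of 45.7 CPM.

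Among 19 receptors of myokines 13 or 14 were tested, and 1, 4, 4 and 2 passed the unadjusted limit from HFD-25% to HFD-U, beside 6.98, 10.7, 5.47 and 5.46% of all genes. After adjustment 0 passed with edgeR in each of the 10 fits (with DESeq2 2 did over the 6 groups and 2 for distance in 30 mice). In the running mice 3 of 13 did so unadjusted (1 higher, 2 lower, beside 9.27% of all genes), with a median log2 fold change of 0.01. Ntrk2, the receptor of the Bdnf protein, had 3.17 ± 0.396 CPM in HFD-C and 1.56 ± 0.790 in HFD-50%, a log2 fold change of -1.02 (adjusted p = 0.285), and -0.64 in the running mice (adjusted p = 0.264), both past the unadjusted limit. The interleukin-6 receptor Il6ra had 10.2 ± 8.36 CPM in HFD-50% against 3.83 ± 1.24 in HFD-C (log2 1.41, adjusted p = 0.318), past the unadjusted limit. Fgfr4, a receptor for fibroblast growth factors, did not pass over the 6 groups (adjusted p = 0.554). Il15ra, the receptor chain that binds the Il15 protein, was named after its values were seen and had log2 fold changes of 0.45 in HFD-50% (adjusted p = 0.285), 0.42 in HFD-75% (adjusted p = 0.650) and 0.33 in the running mice (adjusted p = 0.438), each past the unadjusted limit.

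The members did not vary independently of each other. Over 36 mice and on the log2 scale, Fndc5 and Il15 went together (r = 0.841, rho = 0.824), and the relation was as close within groups (r = 0.871) and in the running mice alone (r = 0.869). Mstn went the other way, with r = -0.655 and rho = -0.675 for Fndc5 and r = -0.505 and rho = -0.440 for Il15 (within groups r = -0.723 and -0.711). Metrnl followed Fndc5 (r = 0.657, rho = 0.646), and Fibin followed Mstn (r = 0.557, rho = 0.520, within groups r = 0.652). These relations were computed among 55 pairs of members and marker levels, and each had a permutation p for r from 1e-05, the smallest that 100000 resamples can give, to 0.00156 (two-sided, adjusted over the pairs 0.000137 to 0.00617). The permutation p for rho was 1e-05 to 0.00771 (adjusted 0.000183 to 0.0265). Leaving out the 2 mice farthest from the median of the first gene left r at 0.812 for Fndc5 and Il15, -0.667 for Mstn and Fndc5, -0.435 for Mstn and Il15, 0.631 for Fndc5 and Metrnl and 0.434 for Mstn and Fibin. Both values of a pair come from the same library. The permutations ran over all 36 mice without regard to group, and the correlations within groups were not tested.

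**Figure D4:**
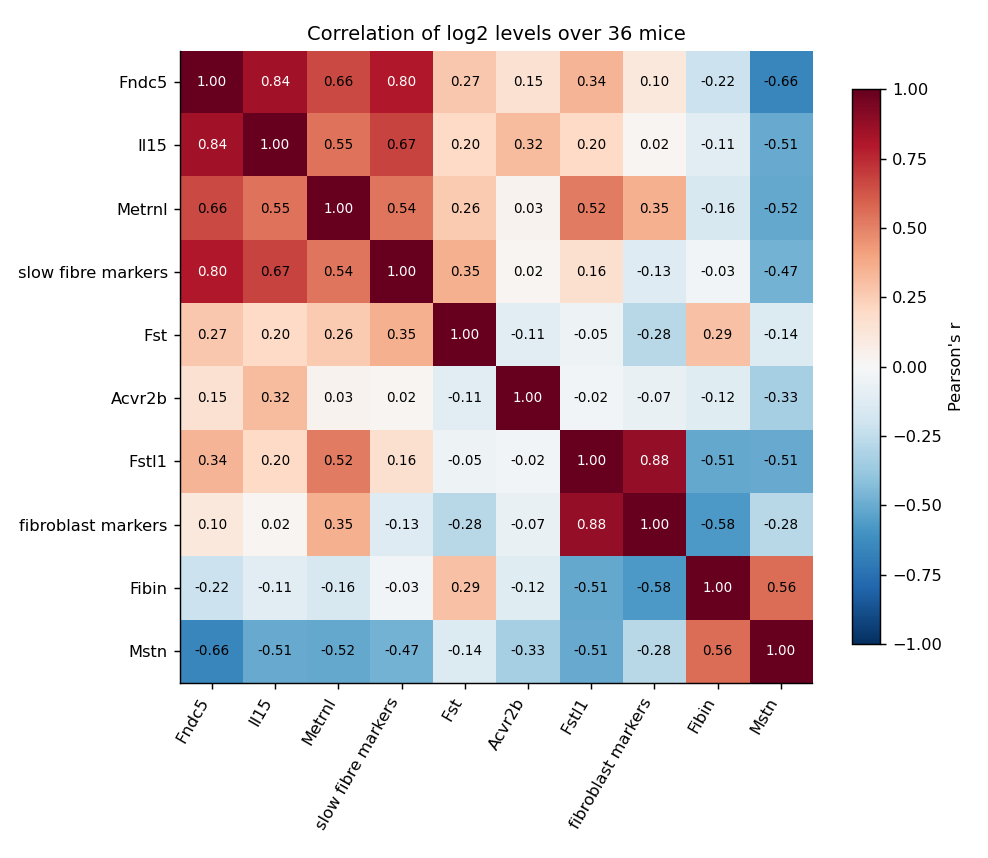
Pearson correlations (colour and number) of the log2 levels of 8 members, of the mean log2 CPM of 8 slow fibre genes and of the log2 summed CPM of 7 fibroblast genes, over 36 mice. Fndc5, Il15, Metrnl and the slow fibre level form one block (0.54 to 0.84), and Fstl1 stands with the fibroblast level (0.88).

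Slow fibre genes differed widely from mouse to mouse. The summed level of 8 slow fibre genes, among them the slow myosin heavy chain gene Myh7, was 38.3 to 2058 CPM in NFD-C, 162 to 2429 in HFD-C and 161 to 4073 in the running mice, with medians of 145, 1316 and 1082 CPM. Among the running mice the medians were 1046, 1711, 838 and 812 CPM from HFD-25% to HFD-U, with overlapping ranges. Each of the 8 genes averaged at least 55.9 CPM, but Myh7 was at 0 in 2 libraries and Tnni1 in 1. On the log2 scale Fndc5 followed the mean level of these genes with r = 0.797 and rho = 0.803 (within groups r = 0.802), Il15 with 0.672 and 0.628 (0.666) and Metrnl with 0.539 and 0.609 (0.596). Mstn had -0.471 and -0.564 (-0.563), and Fibin -0.03 and -0.05 (-0.405). Permutation p was 1e-05 for Fndc5 and Il15, 0.00081 for Metrnl and 0.00400 for Mstn (r, two-sided, adjusted over 55 pairs 0.000137, 0.000137, 0.00445 and 0.0137), and 1e-05, 0.00011, 0.00014 and 0.00047 for rho. Without the 2 mice farthest from the median of the member r was 0.761, 0.662, 0.602 and -0.399. With the slow fibre level in the fit, the difference between running mice and HFD-C was 0.64 for Il15 (adjusted p = 0.350) and 1.23 for Fibin (adjusted p = 0.136), close to the values without it.

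**Figure D5:**
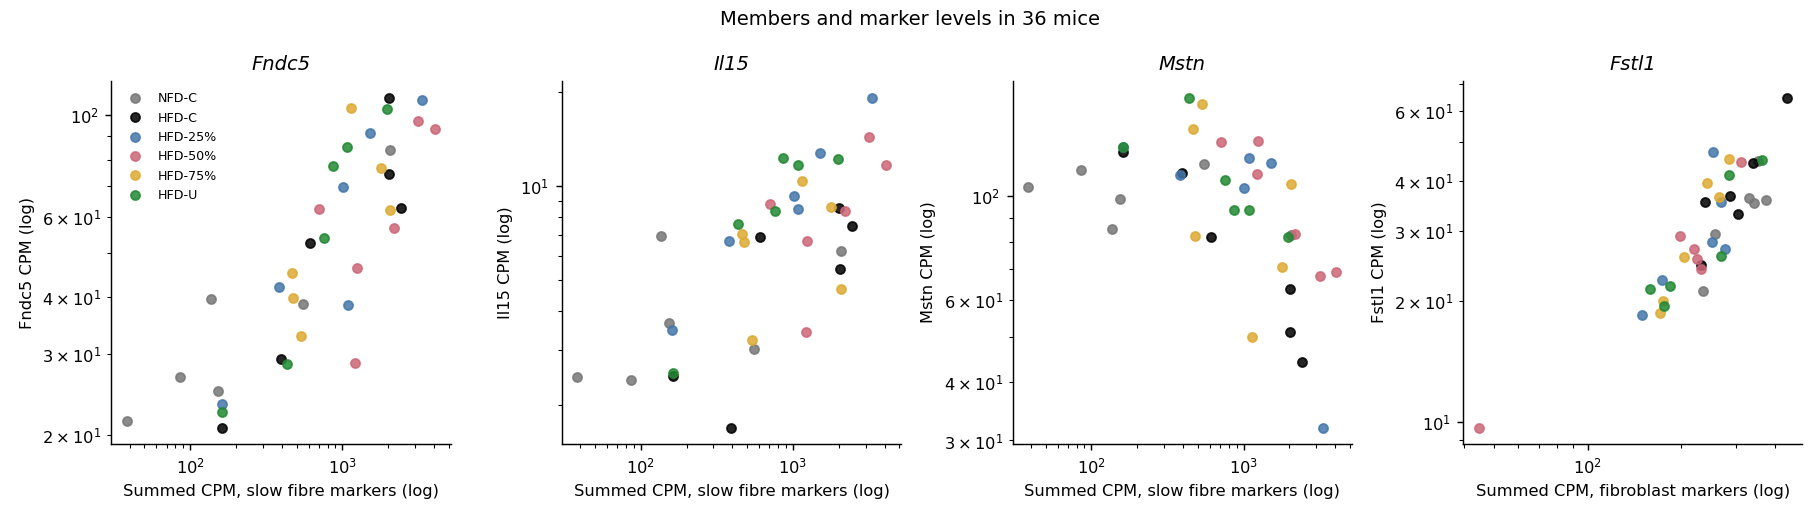
CPM of Fndc5, Il15 and Mstn against the summed CPM of 8 slow fibre genes, and of Fstl1 against that of 7 fibroblast genes, for 36 mice coloured by group (all axes logarithmic). Fndc5 and Il15 are higher and Mstn is lower in mice with a high slow fibre sum (r of 0.797, 0.672 and -0.471 with the mean log2 level of these genes).

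The genes most like each member over the 36 mice were found among 12053 genes and are given as a description, since they were picked as the highest of many. For Fndc5 they were Khdrbs3 (r = 0.948), an RNA-binding protein, and Acaa2 (0.940), an enzyme of fatty acid oxidation in mitochondria. For Il15 they were Acaa2 (0.921) and Ckmt2 (0.893), the creatine kinase of muscle mitochondria. Mstn was closest to Enox2 (0.831) and the predicted gene Gm42146 (0.830), and Fibin to Wbp1l (0.828) and Arhgap26 (0.786). Fstl1 was closest to Fn1 (0.872), which encodes the matrix protein fibronectin, and Fndc1 (0.857). Acvr2b followed Kcnj2 (0.681), a potassium channel, and Sbsn (0.586), Metrnl followed Sdcbp (0.726) and Ablim1 (0.717), and Fst followed the noncoding RNA Snhg1 (0.622) and Gm12989 (0.617).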

How the data were processed

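Gastrocnemius poly(A) RNA of 36 mice was sequenced as paired ends, and groups were taken from the treatment labels. The count per gene in the deposited table was made by the authors with featureCounts 1.5.0-p3 after alignment with HISAT2 2.0.5. The labels name the build mm10, whereas the chromosome records in the table are those of GRCm39, and whether strand was used in counting is not given in the sources used here. Levels and tests were computed from these counts as deposited, with edgeR 4.0.16 in R 4.3.3: TMM factors, a minimum of 25 for a gene's mean count within each fit, glmQLFit and glmQLFTest, and Benjamini-Hochberg adjustment over all genes. The unadjusted limit of 0.05 is the one the study used for differential expression. Log2 CPM used a prior count of 2. Replicates of a group all differed beyond sampling noise (chi-square per degree of freedom 16.2 to 218). On simulated counts with a log2 change of 1, 61.1% of 193 changed genes were found for HFD-50% against HFD-C (12116 genes) and 90.7% of 183 for running mice against HFD-C (12006 genes). Genes counted as found at an adjusted p of at most 0.05, and 6 and 12 unchanged genes were called as well. Each gene was simulated independently, without slow fibre or rRNA-linked differences shared by the genes of a mouse. These shares may therefore be higher than in the real data.

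Named were the 10 members, for each tested member the 2 genes most correlated with it, and from each pathway list every gene with an adjusted p of at most 0.05 in any fit and the 3 with the smallest p over the 6 groups. Members and lists were chosen with earlier results of these data known. Mice of the same number were checked for shared deviations from their group means across all genes tested over the 36 libraries: all 6 correlations were above 0.1 for HFD-U and HFD-C (0.125 to 0.51), but 4, 5, 1 and 3 of 6 for HFD-25%, HFD-50%, HFD-75% and NFD-C against HFD-C and 2 of 6 for HFD-50% and HFD-U. Pairs of different number were not compared, so these correlations do not show that the number ties mice together. The alternatives were DESeq2 1.42.0, no minimum count, RLE size factors, the mouse number as a block, the rRNA-linked share or slow fibre level as a covariate, leaving out the mice numbered 1, the 4 HFD-C libraries of high share or each mouse in turn, and 1 fit over all 36 libraries. Correlations over the 36 mice were tested with 100000 permutations that did not keep the groups apart.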

Additional observations from a re-analysis of the deposited data

Results flagged for a closer look

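In 10 of 54 sets of values (a member in a group of 6 mice), the highest or lowest mouse stood apart from the others by Dixon's criterion. Chance meets it in about 1 of 20 sets if values are normally distributed, which was not checked for these CPM values. The sets also share the same mice, so the 2 rates cannot be compared directly. Mstn was 32.0 CPM in HFD-25% replicate 6 while the others had 104 to 128, and the same mouse had the highest Acvr2b of its group, 35.5 CPM against 21.7 to 24.8. Fst was 5.26 CPM in HFD-C replicate 4, and 1.09 to 2.06 in the others. NFD-C replicate 1 was highest in Fndc5, with 84.1 CPM against 21.5 to 39.6, and in Metrnl, with 7.6 CPM against 1.89 to 3.53. HFD-U replicate 4 had 17.4 CPM of Acvr2b, below the 28.04 to 32.55 of the others, and 4.40 CPM of Metrnl, above their 2.85 to 3.38. Bdnf was 1.70 CPM in HFD-75% replicate 1 against 0.0906 to 0.693. Fibin was 72.6 CPM in HFD-50% replicate 4 against 17.0 to 34.7, and 31.5 CPM in HFD-U replicate 3 against 10.4 to 18.1.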

How the results depend on the processing

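Without each mouse in turn, 0 to 3 members passed the unadjusted limit in HFD-25%, 1 to 2 in HFD-50%, 1 in HFD-75%, 0 to 3 in HFD-U, 0 to 1 in NFD-C and 1 to 3 in the running mice against HFD-C, 1 to 2 between HFD-50% and HFD-U, 1 to 3 over the 6 groups and 1 in both distance fits. In the sentences that follow, percentages are the share of all genes that passed in the same fit. With DESeq2 2 members passed in HFD-50% (11.5%) and 3 in HFD-U (5.84%), and without a minimum count 3 (11.1%) and 4 (8.67%). One fit over all 36 libraries gave 2 in HFD-50% (15%). When the rRNA-linked share was added to the fit, the count was 1 in HFD-25% (13.3%), 1 in NFD-C (7.05%), 1 in the running mice (15.1%) and 0 between HFD-50% and HFD-U (4.58%), and without the mice numbered 1 it was 1 in HFD-25% (7.58%) and 1 in NFD-C (5.25%). Without the 4 HFD-C libraries of high share, which leaves 2 HFD-C mice, it was 0 in HFD-75% (8.99%), 0 in HFD-25% (11.6%) and 0 in the running mice (13.4%). With the slow fibre level as a covariate it was 2 in HFD-50% (8.87%), 2 in HFD-75% (5.66%), 3 in HFD-U (6.34%), 3 between HFD-50% and HFD-U (8.58%) and 2 in each distance fit (11.1% over 30 mice, 10.1% over 24). Fstl1 changed sign in the running mice with the share as a covariate (log2 fold change 0.0944) and without those 4 libraries (0.0238). The cause was not tested.

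With the mouse number as a block, 2 members passed in HFD-50% (14.1%), 4 in HFD-U (10.2%) and 1 in NFD-C (6.94%; Mstn, 0.44, adjusted p = 0.707), and the Fstl1 difference of the running mice no longer did (-0.43, adjusted p = 0.435). In HFD-U and HFD-C all 6 same-numbered pairs deviated together (r above 0.1), without a comparison with pairs of different number. In the other comparisons 1 to 5 of 6 did, always including the mice numbered 1, and no label ties the numbers to a litter, batch or day, so the block is given for them only here. Apart from single mice left out, 61 of 84 member counts stayed within 1.5 times the reported one. The member results that had passed the unadjusted limit were refitted 100 times in all. In 85 refits they stayed past it, with the same direction where the test has one, in 13 they lost it and in 2 they turned. Results that passed only in an alternative fit are not part of this tally. In counts of the pathway lists 184 of 252 stayed within 1.5 times, and 56 of 69 adjusted calls of single genes held. Depth limited Bdnf and Fgf21, with means of 10.03 and 0.194 counts per library.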
